A study of Mus musculus with 8 samples.

Results

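Heat shock proteins and their chaperone partners were followed in mouse hematopoietic stem and progenitor cell cultures grown with or without malonyl-CoA. The set holds the protein-coding genes of the HSP70, HSP110, HSP90, small heat shock protein and mitochondrial chaperonin families, the J proteins of types A, B and C, and the TRiC/CCT chaperonin. Members were taken by gene symbol alone, and 83 of the 48709 gene identifiers in the count tables met the rule. Of these, 66 had enough counts to be tested and 17 did not. The study sorted C57Bl/6J cells that lack lineage markers and carry Sca1 and cKit, the fraction that holds the blood-forming stem cells. It seeded 10000 of them per well and collected their progeny after 7 days for total RNA sequencing. The control group (4 libraries) had serum-free medium with 2 cytokines, stem cell factor (100 ng/ml) plus Flt3 ligand (2 ng/ml), and no malonyl-CoA. The malonyl-CoA group (4 libraries) had the same medium and cytokines with 100 µM malonyl-CoA, the building block that fatty acid synthase adds to a growing chain, throughout the 7 days. Libraries carry the numbers 1, 3, 4 and 5 in both groups. The design text calls them biological replicates without saying whether a number stands for an animal, a pool or a well, so p-values measure the spread between these samples.

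Chaperones bind proteins that are not yet folded or have lost their fold. HSP70 proteins do so in cycles of ATP hydrolysis that J proteins start and nucleotide exchange factors such as the HSP110 proteins reset, and HSP90 proteins act later on kinases and receptors. Small heat shock proteins hold aggregating proteins without ATP, and the TRiC and HSP60 chaperonins enclose a client in a chamber. Cytosol, endoplasmic reticulum (ER) and mitochondria each have their own set. Heat shock factors switch on the cytosolic and mitochondrial genes through heat shock elements, and the unfolded protein response switches on the ER genes through ER stress response elements. Blood stem cells are known to be sensitive to the load of misfolded protein.

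Promoter letters were searched for fixed spellings of those elements. The groups below follow compartment and family, not these matches. RefSeq promoters (GRCm38.p6, 250 bases before to 50 after each annotated start) were found for 68 of the 83 members, 87 promoters in all. A heat shock element was searched as the units GAA, TTC and GAA with 2 free bases between neighbours, an ER stress response element as CCAAT and CCACG with 9 free bases between them, and its second type as ATTGG and CCACG with 1 free base, on both strands. The first was present in 0.603% of all 32851 promoters of that length, the second in 0.119% and the third in 0.0365%. Among members, 4 had the heat shock element (Hspe1, Hspd1, Dnajb6 and Hsph1), 3 had the ER element (Hspa5, Hsp90b1 and Dnajc3) and 1 had its second type (Dnajb11). Counted by promoter, as those shares are, 6, 3 and 1 of the 87 member promoters had a match. Capitals mark the match, including its free positions, and each line is written 5′ to 3′ on the gene's strand.
Hspe1 (chr1:55088039-55088096, + strand): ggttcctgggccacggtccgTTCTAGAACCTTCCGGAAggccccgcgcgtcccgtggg
Dnajb6 (chr5:29735832-29735884, + strand): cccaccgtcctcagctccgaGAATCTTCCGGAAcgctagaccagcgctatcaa
Hspa5 (chr2:34772005-34772063, + strand): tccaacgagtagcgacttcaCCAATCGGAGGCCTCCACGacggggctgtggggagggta
Hsp90b1, nearer match (chr10:86705513-86705571, - strand): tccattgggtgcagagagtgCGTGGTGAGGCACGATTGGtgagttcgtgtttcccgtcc
Hsp90b1, farther match (chr10:86705618-86705676, - strand): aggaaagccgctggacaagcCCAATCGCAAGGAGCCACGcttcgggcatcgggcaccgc
Dnajc3 (chr14:118937807-118937865, + strand): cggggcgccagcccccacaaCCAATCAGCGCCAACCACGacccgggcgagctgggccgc
The Hspe1 letters hold 2 overlapping matches, one on each strand, between the RefSeq starts of Hspe1 and Hspd1, which are read away from each other. GENCODE M21 extends Hspd1 over that stretch. The capitals begin 89 bases before the Hspe1 start, and the same bases on the other strand begin 144 bases before the Hspd1 start. The Hspa5 match begins 65 bases, the Dnajc3 match 105 bases and the Hsp90b1 matches 107 and 212 bases before the RefSeq start. The nearer Hsp90b1 match lies on the opposite strand of the gene. In Dnajb6 the match begins 46 bases before one RefSeq start and 127 before another. GENCODE M21 begins Hspa5 at 34771970 and Dnajb6 at 29735688, before the printed windows, so both matches lie inside its gene spans. The matches in Hsph1 and Dnajb11 lie just after the start and are not printed. A match describes letters in a window and is not evidence of binding. A member without a match may carry an element in another spelling or outside the window.

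Counts assigned to genes ranged from 17492085 to 22079844 per library, and the members took 1.34% to 1.70% of them. Alignments that were not unique, which are not in any gene's count, made up 38.2% to 51.1% of the counter's tally. That tally may hold a read more than once, so this is not a share of reads. Malonyl-CoA 4 stood apart on the first principal component. In control 5 each gene's deviation from its mean log2 CPM followed transcript GC content (Spearman's rho -0.676 across genes, as a description). The same rho was -0.049, -0.029 and 0.165 in controls 1, 3 and 4. With malonyl-CoA it was 0.436, 0.198, 0.182 and 0.186 in libraries 1, 3, 4 and 5. All 9 HSPC markers were detected, 3 with a positive and 6 with a negative log2 fold change (median -0.027). They summed to 1124 to 1233 CPM in control and 1033 to 1074 CPM with malonyl-CoA. Kit stood at 270.1 ± 36.7 CPM in control and 244 ± 51.9 CPM with malonyl-CoA. Cd34 stood at 598 ± 41.4 CPM in control and 454 ± 20.1 CPM with malonyl-CoA. The log2 fold change was -0.55 (SE 0.15, without overlap) for Hlf. For Ly6a (Sca1) and Procr it was 0.94 (SE 0.44) and 1.14 (SE 0.88), both with overlap. The granulocyte gene Mpo stood at 9386 ± 2425 CPM in control and 9165 ± 1469.6 CPM with malonyl-CoA. Summed CPM of 9 granulocyte markers spanned 12806 to 20524 in control and 13249 to 17060.0 with malonyl-CoA, and all 8 tested ones had a negative log2 fold change (median -0.46, 3 at an unadjusted p under 0.05). Proliferation genes summed to 2186 to 2736 and 2356 to 3315 CPM. Mast cell and basophil markers summed to 764 to 1006 CPM in control and 678 to 760.0 CPM with malonyl-CoA, with 5 of 6 negative and 3 of them without overlap. Over all genes, 2.93% were without overlap on the lower side and 4.1% had an unadjusted p under 0.05 there. The 5 megakaryocyte markers summed to 787 to 964 CPM in control and 563 to 904 CPM with malonyl-CoA, with 3 positive. The 8 lymphoid markers summed to 114 to 149 CPM in control and 91.2 to 129 CPM with malonyl-CoA. All 4 tested ones, Rag1, Rag2, Dntt and Il7r, were negative, 3 at an unadjusted p under 0.05 and 2 without overlap. The 8 erythroid markers summed to 22.8 to 25.4 CPM in control and 19.9 to 24.7 CPM with malonyl-CoA (3 of 4 tested negative), and the 8 stromal and endothelial markers to 120.4 to 179 CPM in control and 126 to 205 CPM with malonyl-CoA (3 of 4 tested positive). In each of the last 3 lists 4 of 8 markers lay under a mean of 1 CPM, and 1 (Cd3e, Hba-a2 and Col3a1) had 0 counts in all 8 libraries. Monocyte and macrophage markers summed to 1424 to 1835 CPM in control and 1516 to 1838 CPM with malonyl-CoA, with 4 of 7 tested positive. Among these markers Csf1r (log2 fold change 0.52, groups without overlap), Fcgr1 (1.25), Rag2 (-0.80) and Cd34 (-0.40) reached adjusted p of 0.0132, 0.0463, 0.0237 and 0.0449 in DESeq2, though not in edgeR (0.352, 0.368, 0.352 and 0.352). In bulk RNA, fewer cells of a type and less RNA per cell cannot be told apart. The part of cell composition in the values below was not tested.

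No chaperone gene differed between the groups at an adjusted p under 0.05. With edgeR's quasi-likelihood test the count was 0 of 66 members, beside a background of 0.0% of 12696 genes, and the smallest adjusted p of a member was 0.502. DESeq2 called 0 members, beside 0.591% of the 13871 genes it gave an adjusted p, and limma-voom called 0. At an unadjusted p under 0.05 there were 0 members on the higher side (background 5.43%) and 2 on the lower side (background 4.1%, and 9.53% in either direction), Dnajc12 and Cct4. Leaving out 1 library at a time, this count was 0, 1, 10 and 3 without controls 1, 3, 4 and 5, and 1, 1, 1 and 5 without malonyl-CoA 1, 3, 4 and 5. The share of all genes in each of these fits is not given here, so the counts say nothing about the members in particular. Of the members, 33 had a positive and 33 a negative log2 fold change (malonyl-CoA minus control), with a median of -0.0024, against 53.4% positive and a median of 0.023 over all genes. Without scaling factors the split was 37 positive to 29 negative, and with a correction for GC content 36 to 30. In 63 of 66 members the log2 fold change lay between -0.41 and 0.68, the 5th and 95th percentiles of all genes. It exceeded 0.5 in size in 3 members (background 12.8%), Dnajb12, Hspe1 and Hspb11. In 64 of 66 members the range of the 4 controls, highest minus lowest, was larger than the difference between the group means. Such a range tends to exceed a difference of means, and the share of all genes is not given here. This count therefore says nothing about the members in particular. The groups did not overlap in 2 members, Dnajb11 and Dnajb5, both higher with malonyl-CoA (background 3.21%), and in 0 members on the lower side (background 2.93%).

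**Figure D1:**
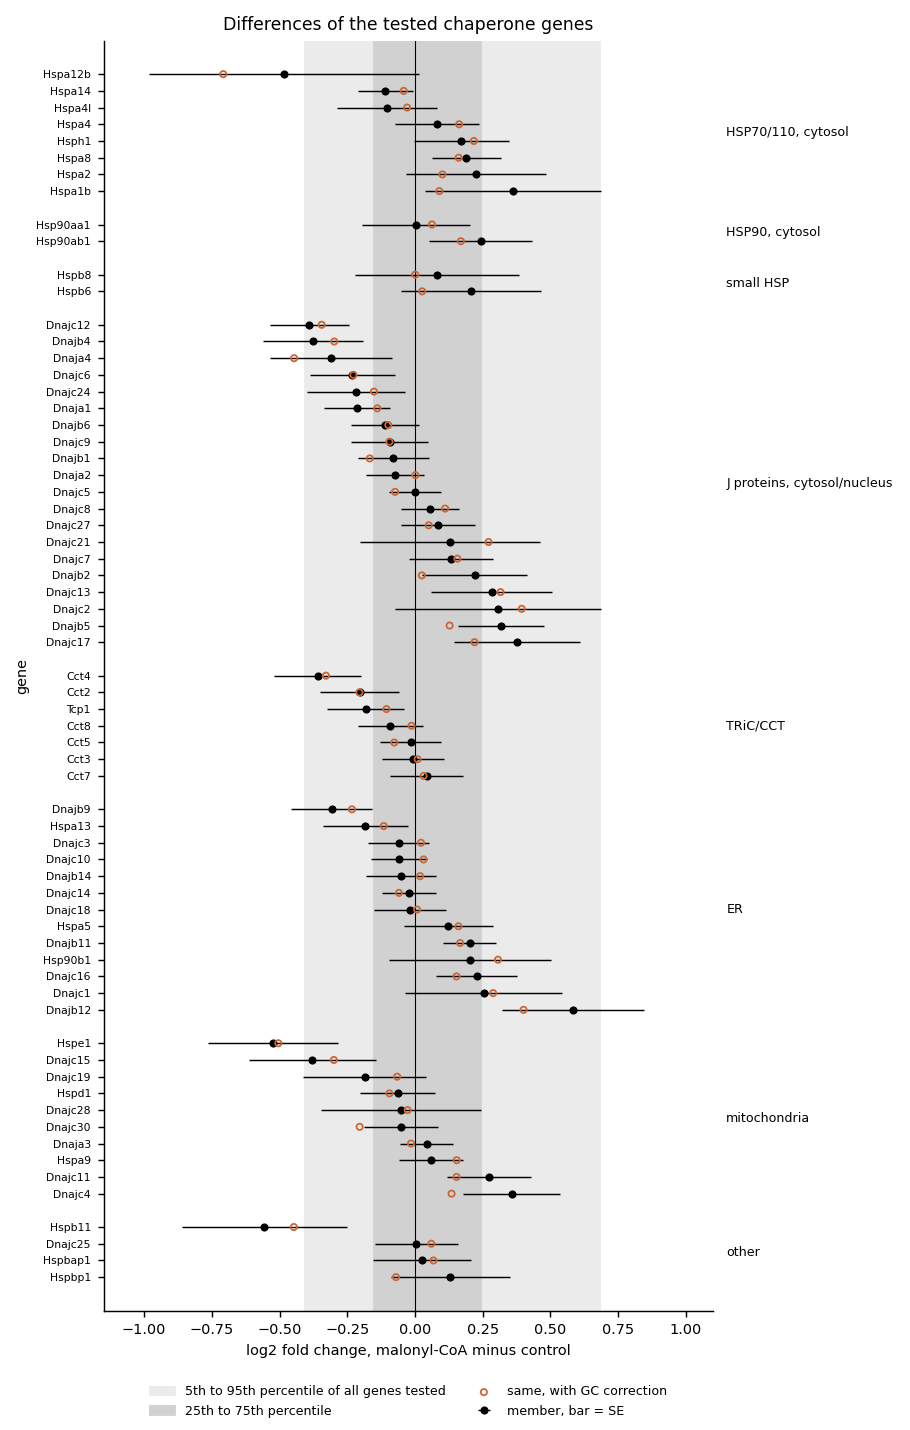
Log2 fold change (malonyl-CoA minus control, x axis) of each of the 66 tested members, grouped by compartment and family (y axis). Black points are the edgeR estimates with bars of 1 SE, open points the estimates after correction for transcript GC content, and grey bands the 5th to 95th and 25th to 75th percentiles of all 12696 genes; 63 black points lie inside the wider band.

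Levels between genes were compared as control mean CPM per kb of the principal transcript. Alignments that were not unique are left out of these counts, which can lower some genes more than others. HSP90 beta (Hsp90ab1) was highest at 1028 ± 224 CPM per kb (SD, n = 4, as for the levels that follow). The constitutive HSP70 gene Hspa8 followed at 485 ± 37.1 CPM per kb. A band of genes from 3 compartments came next, without a clear order among neighbours. It held the TRiC genes Cct2 (382 ± 45.5), Cct5 (369 ± 20.2) and Tcp1 (342 ± 33.3), ER BiP Hspa5 (316 ± 70.2) and mitochondrial mortalin Hspa9 (286 ± 32.3). Neighbours in that order differed by less than the larger SD of the pair. The ER HSP90 gene Hsp90b1 stood at 271 ± 107 CPM per kb, the HSP60 gene Hspd1 at 197 ± 33.8 and its lid, HSP10 (Hspe1), at 215 ± 51.6. HSP90 alpha (Hsp90aa1), the heat-inducible form, had 96.6 ± 30.4 CPM per kb. The highest cytosolic and nuclear J proteins were Dnaja2 at 94.6 ± 6.25 CPM per kb and Dnajc9 at 90.2 ± 16.9, which differed by less than the larger SD.

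**Figure D2:**
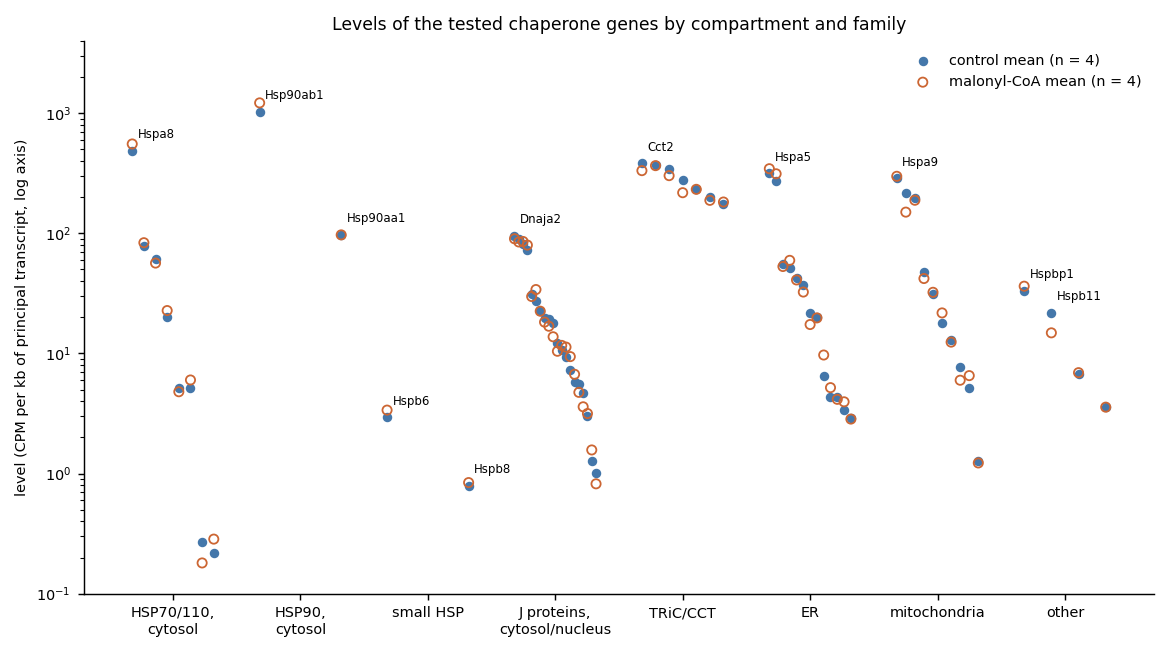
Mean level of each tested member in CPM per kb of principal transcript (log axis), in control (filled) and with malonyl-CoA (open), n = 4 libraries each, ordered within each compartment or family by the control mean. Filled and open points lie close together at every level, from Hsp90ab1 at 1028 CPM per kb in control down to Hspa1b at 0.218.

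Transcripts of inducible HSP70 and HSP27 were near the floor in both groups. Inducible HSP70 is encoded by the near-identical pair Hspa1a and Hspa1b, whose shared reads have several positions and are not counted, so both values are uncertain. Hspa1a had 4, 5, 3 and 7 counts in control and 6, 12, 8 and 8 with malonyl-CoA and was not tested. Hspa1b had 7, 11, 10 and 21 counts in control and 14, 14, 21 and 15 with malonyl-CoA, which overlap, with a log2 fold change of 0.36 (SE 0.32). Hspb1, the gene of the stress-induced small heat shock protein HSP27, had at most 1 count in any library. Among the 17 untested members the highest count was 12, and 5 had no count in any library. They include the testis forms Hspa1l, Dnajb3, Dnajb8 and Cct6b, and the muscle forms Hspb2, Hspb3 and Hspb7. Of 7 small heat shock protein genes 2 were tested. Hspb6 had 3.99, 3.44, 5.50 and 3.05 CPM in control and 3.70, 4.35, 6.61 and 3.72 CPM with malonyl-CoA, and Hspb8 had 1.65, 1.56, 1.26 and 1.27 CPM in control and 1.22, 2.15, 0.849 and 1.89 CPM with malonyl-CoA, given in the order of libraries 1, 3, 4 and 5, as all such lists below. Both groups overlap in each gene, and the log2 fold changes were 0.21 (SE 0.26) and 0.08 (SE 0.30). Of 7 tested immediate early genes, which respond to handling and to stimuli, 6 had positive log2 fold changes (median 0.44) and 0 passed the adjusted test. Jun had 38.5 ± 14.2 CPM in control and 68.9 ± 6.74 CPM with malonyl-CoA. Junb had 29.7 ± 14.1 CPM in control and 59.7 ± 5.50 CPM with malonyl-CoA. Among the 7, these 2 had groups without overlap, both higher with malonyl-CoA (3.21% of all genes).

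Cytosolic HSP70 and HSP110 genes had positive log2 fold changes in 5 of 8 tested members, with a median of 0.13, and the same 5 under each scaling tried. Hspa8 (ENSMUSG00000015656, GRCm38 chromosome 9, 40800984 to 40810087), which folds new proteins and uncoats clathrin vesicles, had 1211, 1221, 1183 and 1030.3 CPM in control and 1370.4, 1330.2, 1100.3 and 1497 CPM with malonyl-CoA. The 3 highest of the 8 values are malonyl-CoA libraries and malonyl-CoA 4 lies inside the control range, so the groups overlap. The log2 fold change was 0.19 (SE 0.13, 95% interval -0.097 to 0.48, edgeR adjusted p = 0.552). Small nucleolar RNA genes lie within Hspa8, which bears on its count in a total RNA library. The HSP110 exchange factor Hsph1, with a heat shock element after its start, had 57.3, 65.5, 92.4 and 91.5 CPM in control and 74.8, 84.0, 99.8 and 87.0 CPM with malonyl-CoA. Controls 1 and 3 were lowest and malonyl-CoA 4 highest, with controls 4 and 5 above the other malonyl-CoA libraries (log2 fold change 0.17, SE 0.17). Its relative Hspa4 had 288, 314, 392 and 460.0 CPM in control and 356, 371, 423 and 389.6 CPM with malonyl-CoA, with the highest and the lowest value both in control (log2 fold change 0.082, SE 0.15). Hspa4l, Hspa14, a partner of the ribosome-bound J protein Dnajc2, and Hspa12b had log2 fold changes of -0.10, -0.11 and -0.48, the last from a mean under 1 CPM. Summed over the 11 listed genes, HSP70 and HSP110 transcripts came to 1717 to 1842 CPM in control and 1792 to 2139 CPM with malonyl-CoA.

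HSP90 was carried by its beta form. Hsp90ab1 (ENSMUSG00000023944, GRCm38 chromosome 17, 45567775 to 45573271) had 2093, 2379, 3401 and 2484 CPM in control and 2780.3, 2798, 3961 and 2716 CPM with malonyl-CoA. In both groups library 4 was the highest, and control 4 exceeded 3 of the 4 malonyl-CoA libraries. The log2 fold change was 0.24 (SE 0.19, 95% interval -0.18 to 0.67, edgeR adjusted p = 0.588). Hsp90aa1 had 228, 257, 331 and 452 CPM in control and 295, 319, 358 and 299 CPM with malonyl-CoA. Its controls spanned the whole range of the malonyl-CoA libraries, and the means were 317 ± 99.9 CPM in control and 318 ± 28.5 CPM with malonyl-CoA (SD, n = 4 each), a log2 fold change of 0.0039 (SE 0.20).

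**Figure D3:**
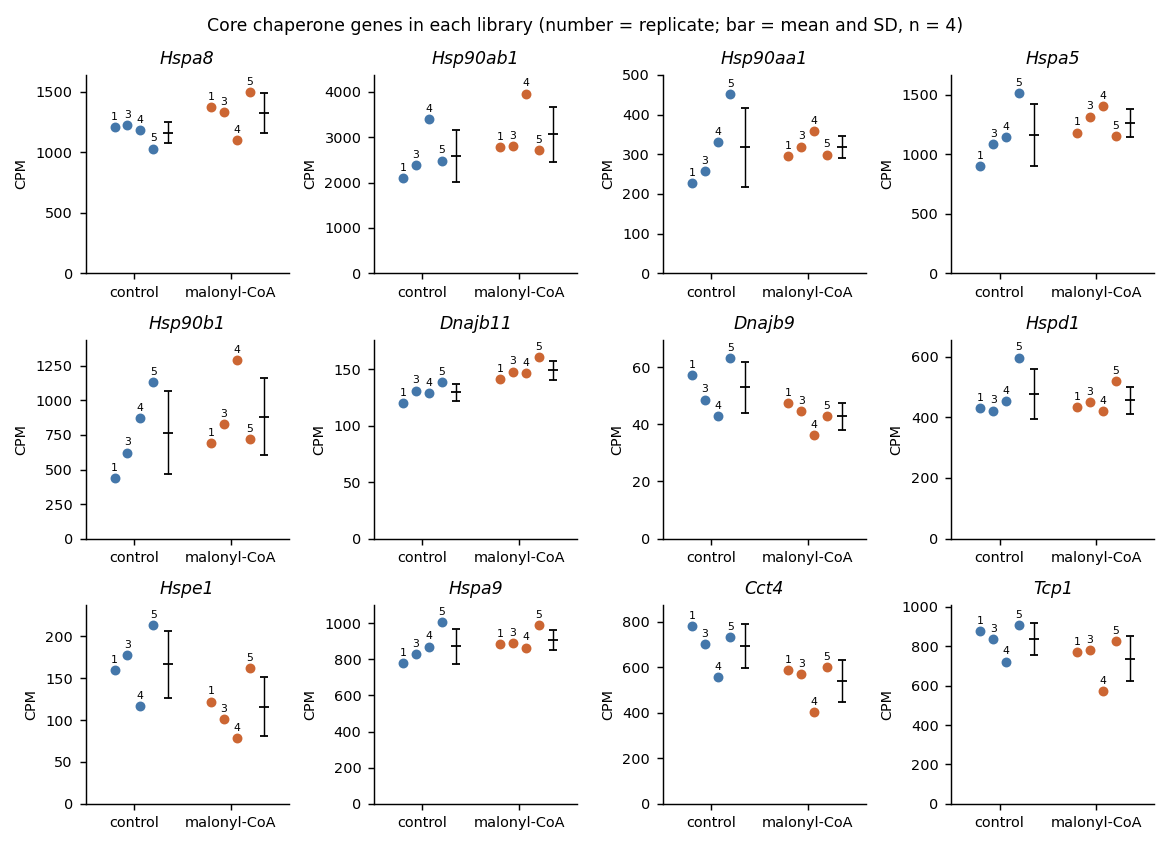
CPM of 12 core chaperone genes in each library (y axis, starting at 0; points are numbered by replicate), for control and malonyl-CoA, with bars at the mean and SD (n = 4). Dnajb11 is the one gene of the 12 whose groups do not overlap, and Hsp90ab1 and Cct4 show malonyl-CoA 4 away from the other malonyl-CoA libraries.

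Cytosolic and nuclear J proteins, which deliver clients to HSP70 and start its ATP hydrolysis, were evenly split, with 10 of 20 tested members positive and 10 negative (median -0.036). The counts were the same under each scaling tried, though Dnaja2 and Dnajc5 changed places with the GC correction. The major heat-inducible form Dnajb1 had 103, 102, 83.3 and 88.2 CPM in control and 98.6, 94.2, 72.7 and 91.0 CPM with malonyl-CoA (log2 fold change -0.079, SE 0.13). The farnesylated form Dnaja1 had 104, 107, 99.7 and 128 CPM in control and 88.4, 96.4, 86.1 and 107 CPM with malonyl-CoA. Control 5 was highest and malonyl-CoA 4 lowest, and the groups overlap (log2 fold change -0.21, SE 0.12, edgeR adjusted p = 0.524). Dnajc12, a co-chaperone of the aromatic amino acid hydroxylases, had 16.2, 13.7, 11.8 and 15.3 CPM in control and 11.2, 9.92, 10.5 and 11.9 CPM with malonyl-CoA. Malonyl-CoA 1, 3 and 4 lay below all controls, and malonyl-CoA 5 just above control 4, the lowest control. Its log2 fold change of -0.39 (SE 0.15) had the smallest p of any member, 0.0239 before and 0.502 after adjustment over all genes in edgeR. Dnajb4 had 41.4, 42.3, 33.8 and 58.3 CPM in control and 34.7, 35.1, 26.8 and 39.0 CPM with malonyl-CoA, a log2 fold change of -0.38 (SE 0.18) with overlap, and -0.11 without control 5 and malonyl-CoA 4. On the other side, Dnajb5 had 4.34, 4.36, 4.52 and 3.47 CPM in control and 5.16, 5.13, 5.67 and 4.79 CPM with malonyl-CoA. Every malonyl-CoA value was above every control, at a level of few CPM, with a log2 fold change of 0.32 (SE 0.16, edgeR adjusted p = 0.515) that stood at 0.13 after the GC correction. Dnajc17, a nuclear J protein linked to splicing, and Dnajc13, which acts on endosomes, differed on the log2 scale by 0.38 (SE 0.23) and 0.28 (SE 0.22). Dnajb6, a suppressor of aggregation with a heat shock element before its RefSeq starts, stood at 31.5 ± 1.77 CPM in control and 29.2 ± 3.52 CPM with malonyl-CoA. Its log2 fold change was -0.11 (SE 0.13). The widest spread was in the ribosome-bound Dnajc2, with 28.7, 43.1, 73.3 and 89.2 CPM in control and 56.4, 59.8, 122 and 52.2 CPM with malonyl-CoA. Its highest library was 4.23-fold above its lowest, and both groups held low and high values.

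The TRiC/CCT chaperonin is a double ring of 8 different subunits that folds actin and tubulin. Of 7 tested subunit genes 6 had negative log2 fold changes (median -0.09), 4 of 7 without scaling factors, where Cct3 and Cct5 turned positive, and 5 of 7 with the GC correction, where Cct3 did. Cct4 (ENSMUSG00000007739, GRCm38 chromosome 11, 22990519 to 23003780) had 780.3, 702, 556 and 734 CPM in control and 588, 569, 403 and 600.0 CPM with malonyl-CoA. Control 4 lay among the malonyl-CoA libraries, so the groups overlap, and malonyl-CoA 4 was far below the rest. The log2 fold change of Cct4 was -0.36 (SE 0.16, 95% interval -0.72 to -0.0033, edgeR adjusted p = 0.515). Cct2 had 788, 722, 639 and 847 CPM in control and 656, 649, 517 and 778 CPM with malonyl-CoA (log2 fold change -0.20, SE 0.15). Tcp1, the founding subunit, whose gene overlaps others on both strands, had 878, 836, 722 and 908 CPM in control and 772, 779.6, 571 and 828 CPM with malonyl-CoA (log2 fold change -0.18, SE 0.14). In both genes malonyl-CoA 4 was the lowest library and control 5 the highest. Cct8, Cct5, Cct3 and Cct7 had log2 fold changes of -0.09, -0.016, -0.0061 and 0.044, with SEs of 0.12, 0.11, 0.11 and 0.13. The remaining subunit, Cct6a, is typed as a processed transcript in the annotation and so is not a member, and it had 586 ± 48.0 CPM in control and 529.6 ± 83.6 CPM with malonyl-CoA, a log2 fold change of -0.15 (SE 0.14). All 7 tested subunit genes, and Cct6a, had their lowest value in malonyl-CoA 4, where 24.3% of all genes did. Without control 5 and malonyl-CoA 4 the Cct4 log2 fold change was -0.21, and Cct5 and Cct8 were positive. Summed TRiC transcripts of the 9 members came to 3962 to 4592 CPM in control, and to 4096, 4047, 3215 and 4468 CPM with malonyl-CoA.

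ER chaperones were all tested, 13 of 13, with 6 positive and 7 negative log2 fold changes (median -0.02). That split depended on the scaling, with 8 positive without scaling factors and 10 with the GC correction. BiP (Hspa5, ENSMUSG00000026864, GRCm38 chromosome 2, 34771970 to 34777547), the ER HSP70 and a classic readout of the unfolded protein response, had 901, 1083, 1141 and 1515 CPM in control and 1182, 1317, 1406 and 1152 CPM with malonyl-CoA. The lowest and the highest library were both controls. Its log2 fold change was 0.12 (SE 0.16, 95% interval -0.24 to 0.49, edgeR adjusted p = 0.741). GRP94 (Hsp90b1), the ER HSP90, had 439, 623, 871 and 1133 CPM in control and 692, 828, 1290.4 and 719 CPM with malonyl-CoA. Its controls differed 2.58-fold among themselves, and the log2 fold change was 0.20 (SE 0.30, 95% interval -0.47 to 0.88). Dnajb11 (ENSMUSG00000004460, GRCm38 chromosome 16, 22857845 to 22879634), the soluble J protein that serves BiP and carries the second type of ER element, had 120.3, 131, 129 and 139 CPM in control and 141, 148, 147 and 161 CPM with malonyl-CoA. All 4 malonyl-CoA libraries were above all 4 controls, by a small margin between control 5 and malonyl-CoA 1. A predicted gene overlaps Dnajb11 on the opposite strand, so its count is uncertain to that extent. This gave a log2 fold change of 0.20 (SE 0.098, 95% interval -0.016 to 0.42, edgeR adjusted p = 0.515). Dnajc3 (p58IPK), a J protein with an ER element before its start, had 194, 213, 217 and 253 CPM in control and 198, 211, 230.0 and 201 CPM with malonyl-CoA (log2 fold change -0.061, SE 0.11, positive with the GC correction). Dnajb9 (ERdj4), which represses the sensor IRE1 and hands proteins to degradation, had 57.2, 48.6, 42.8 and 63.0 CPM in control and 47.4, 44.5, 36.3 and 42.9 CPM with malonyl-CoA. Library 4 was the lowest in both groups and control 4 lay among the malonyl-CoA values (log2 fold change -0.31, SE 0.15, edgeR adjusted p = 0.515). Log2 fold changes were -0.18 (SE 0.16) for Hspa13, -0.059 (SE 0.10) for the ER reductase Dnajc10 and 0.23 (SE 0.15) for Dnajc16. The membrane-bound Dnajb12 had the largest log2 fold change of all members, 0.58 (SE 0.26, edgeR adjusted p = 0.515). It had 14.4, 17.0, 27.8 and 20.1 CPM in control and 25.5, 27.5, 44.3 and 21.8 CPM with malonyl-CoA. Control 4 was higher than 3 of the 4 malonyl-CoA libraries, and without control 5 and malonyl-CoA 4 the log2 fold change was 0.33. The ER members together summed to 2304 to 3699 CPM in control and 2807 to 3679 with malonyl-CoA, a range that the controls alone span.

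Mitochondrial chaperones were all tested, 10 of 10, with 4 positive and 6 negative log2 fold changes (median -0.051), and 3 positive with the GC correction, where Dnaja3 turned negative. HSP60 (Hspd1, ENSMUSG00000025980, GRCm38 chromosome 1, 55077835 to 55088243), which forms the folding chamber of the matrix, had 431, 422, 455 and 597 CPM in control and 434, 450.0, 419.6 and 520.0 CPM with malonyl-CoA. The groups overlap throughout, with library 5 highest in each (log2 fold change -0.063, SE 0.14, 95% interval -0.37 to 0.25). Its lid HSP10 (Hspe1, ENSMUSG00000073676, GRCm38 chromosome 1, 55088132 to 55091307) had 159.7, 177, 117 and 213 CPM in control and 122, 101, 78.7 and 162 CPM with malonyl-CoA. Library 4 was lowest and library 5 highest in both groups, and controls 1 and 4 fell within the range of the malonyl-CoA libraries. The Hspe1 log2 fold change was -0.52 (SE 0.24, 95% interval -1.06 to 0.0088, edgeR adjusted p = 0.515). With the replicate number as a term in the edgeR fit, its adjusted p was 0.0517. The annotated Hspd1 and Hspe1 genes overlap on opposite strands and the strand setting of the counting is not given in the sources used here, so reads in the overlap are uncertain. Mortalin (Hspa9), which pulls proteins through the import pore and serves iron-sulfur cluster assembly, had 778, 829.6, 869.8 and 1008 CPM in control and 885, 891, 865 and 990.1 CPM with malonyl-CoA (log2 fold change 0.059, SE 0.12). Dnaja3 (Tid1), its J protein in the matrix, had 76.7 to 87.2 CPM in control and 82.1 to 90.2 CPM with malonyl-CoA (log2 fold change 0.044, SE 0.098). The import motor J proteins Dnajc15 and Dnajc19 differed on the log2 scale by -0.38 (SE 0.23) and -0.19 (SE 0.23). Dnajc15 was highest in control 5 at 65.7 CPM and lowest in malonyl-CoA 4 at 24.3 CPM, the same libraries as for Hspe1. Without both of them the log2 fold changes of Dnajc15 and Hspe1 stood at -0.034 and -0.24. Dnajc11, of the inner membrane contact site complex, and Dnajc4 were on the positive side at 0.27 (SE 0.16) and 0.36 (SE 0.18).

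A further 5 members share the symbols but belong to no group above, and 4 of them were tested. Hspb11, a subunit of the intraflagellar transport complex despite its name, had 13.7, 12.7, 7.83 and 18.5 CPM in control and 9.06, 8.89, 5.27 and 12.8 CPM with malonyl-CoA. Control 5 was highest and malonyl-CoA 4 lowest, and the 2 groups overlap (log2 fold change -0.56, SE 0.30, edgeR adjusted p = 0.519). The HSP70 exchange factor Hspbp1, the hydroxylase-related Hspbap1 and the membrane J protein Dnajc25 had log2 fold changes of 0.13, 0.026 and 0.0046 (SE 0.22, 0.18 and 0.15), that of Hspbp1 negative with the GC correction.

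Members varied from library to library. In 18 of 66 members the highest of the 8 libraries was over 2-fold above the lowest. The share of all genes that did so is not given here, so this count says nothing about the members in particular. The median SE of the log2 fold change was 0.156 in the members and 0.183 over all genes. Control 5 was the highest library in 29 of 66 members (43.9%, against 20.6% of all genes) and malonyl-CoA 4 in 16 (24.2% against 31.4%). The lowest library was malonyl-CoA 4 in 23 members and control 1 in 21. Control 1 was lowest in 5 of 8 cytosolic HSP70 and HSP110 genes, in both HSP90 genes and in 6 of 13 ER genes, against 18.6% of all genes. The ER pair Hspa5 and Hsp90b1, the cytosolic pair Hsp90aa1 and Hsph1, and Hspa4 shared this low value. GC content moved with the difference between groups. Over the 44 members below the median GC content of all genes (50.4%) the median log2 fold change was -0.06, and over the 22 above it 0.20. All genes on the same sides had -0.08 and 0.14.

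**Figure D4:**
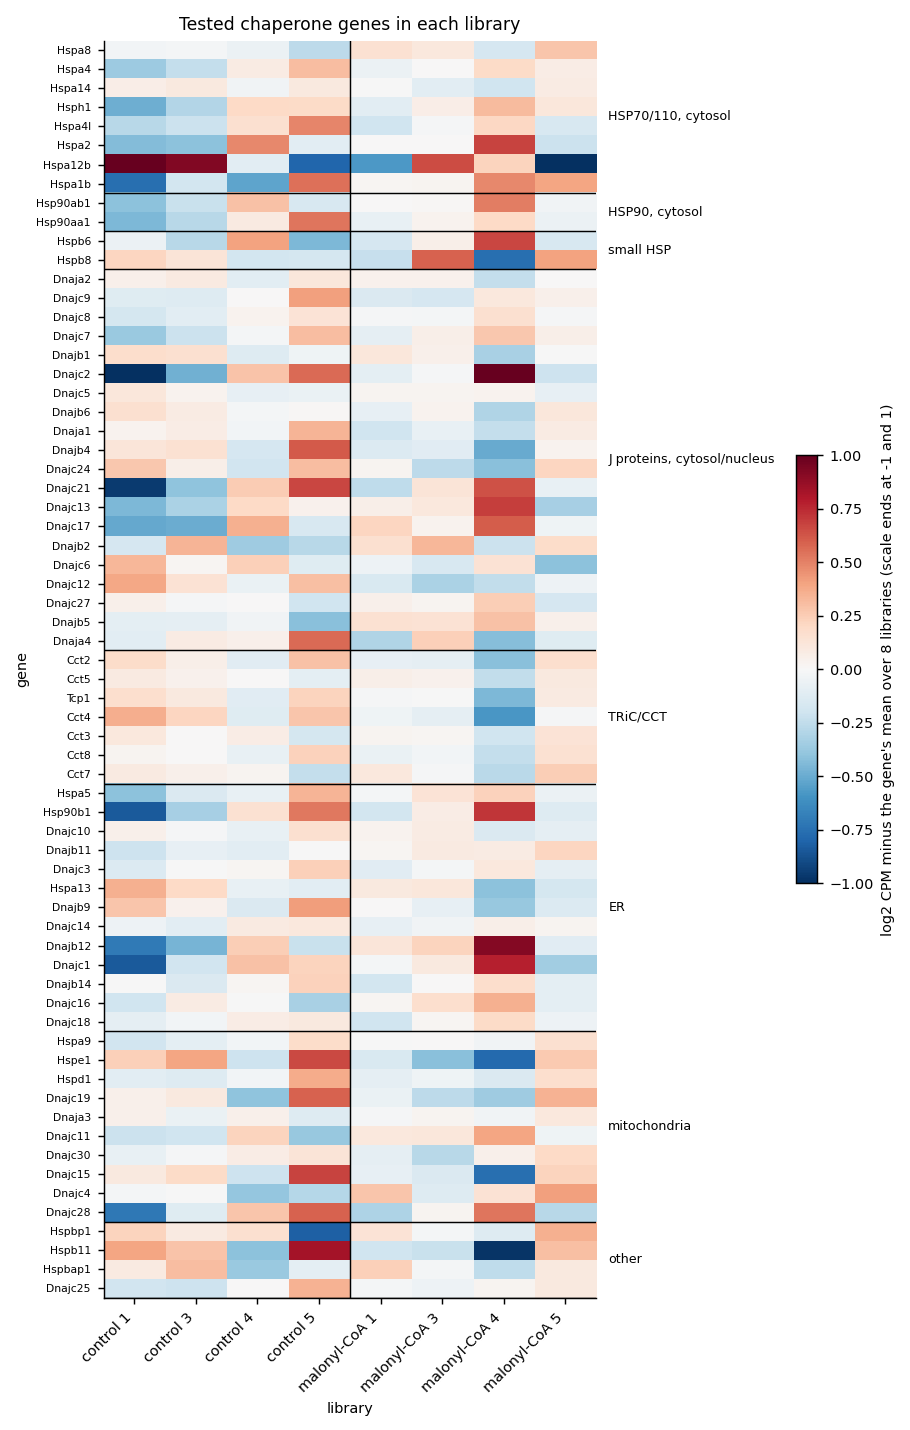
Log2 CPM of each tested member (rows) in each library (columns) minus the gene's mean over the 8 libraries, with the colour scale ended at -1 and 1. Control 5 and malonyl-CoA 4 show the strongest colours, the 7 TRiC genes are lowest in malonyl-CoA 4, and no block of rows separates the 4 controls from the 4 malonyl-CoA libraries.

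Genes that work with the members, from lists of regulators and co-factors, gave 0 calls at an adjusted p under 0.05 in edgeR without the replicate block (the same replicate number used as a term in the fit). Of the heat shock factors and their binding protein, 1 of 3 tested was positive. It was Hsf1, the master regulator of the heat shock response, with 23.6, 21.5, 36.6 and 19.9 CPM in control and 32.2, 29.5, 48.6 and 30.0 CPM with malonyl-CoA (log2 fold change 0.47, SE 0.23, edgeR adjusted p = 0.515), and 0.24 with the GC correction. Hsf2 and Hsbp1 had log2 fold changes of -0.14 and -0.13, with Hsf2 at 0.033 with the GC correction. Among 23 tested cytosolic co-chaperones 12 were positive and 11 negative (median 0.065), with 1 gene at an unadjusted p under 0.05 on each side. They were Unc45a, a myosin chaperone that binds HSP90 (14.6 ± 3.00 CPM in control and 21.7 ± 4.49 CPM with malonyl-CoA, log2 fold change 0.58, 0.31 with the GC correction), and the HSP70 exchange factor Bag4 (-0.25). Bag3, which routes HSP70 clients to autophagy, had a log2 fold change of 0.38 (SE 0.18), 0.16 with the GC correction. Prefoldin subunits and TRiC co-factors, which feed clients to that chaperonin, were negative in 7 of 9 (median -0.14), with Vbp1 at -0.43 (SE 0.20, -0.27 with the GC correction), Pfdn4 at -0.41 (SE 0.26) and Pdcl at -0.21 (SE 0.15). Their summed CPM was 735 to 948 in control and 566 to 921 with malonyl-CoA. Their median deviation from each gene's mean log2 CPM was -0.43 in malonyl-CoA 4, against -0.0084, -0.068 and 0.19 in malonyl-CoA 1, 3 and 5, and the part of that library was not tested.

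ER folding enzymes and unfolded protein response genes other than the members were positive in 20 of 30 (median 0.12, 0.061 with the GC correction). Of them 4 had an unadjusted p under 0.05, all positive (5.43% of all genes did so on that side), and 5 had groups without overlap, all higher with malonyl-CoA (3.21% of all genes). With the GC correction Creld2 and Ddit3 kept an unadjusted p under 0.05, and Atf6b and Syvn1 did not. Creld2, an ER stress-induced isomerase, had 51.7, 53.8, 54.1 and 45.2 CPM in control and 67.7, 66.0, 63.7 and 72.7 CPM with malonyl-CoA. Each malonyl-CoA library was above each control (log2 fold change 0.40, SE 0.11, edgeR adjusted p = 0.368), and the value was 0.25 with the GC correction. Ddit3 (CHOP), the transcription factor of prolonged ER stress, had 7.81, 10.003, 9.74 and 8.73 CPM in control and 11.4, 13.3, 19.8 and 11.4 CPM with malonyl-CoA, again without overlap (log2 fold change 0.63, SE 0.20, adjusted p = 0.445 in edgeR). Atf6b, a membrane-bound transcription factor related to Atf6, differed by 0.39 on the log2 scale (SE 0.15) and by 0.045 with the GC correction. The ER exchange factor Hyou1 had 250.5 ± 79.0 CPM in control and 343 ± 66.3 CPM with malonyl-CoA (log2 fold change 0.45, SE 0.22). Xbp1, the transcription factor made active by IRE1, had 436, 433, 327 and 382 CPM in control and 363, 357, 305 and 377 CPM with malonyl-CoA in total transcript (log2 fold change -0.17, SE 0.13), and gene counts do not separate its spliced form. Mitochondrial folding factors and proteases were positive in 9 of 15 (median 0.15, 0.011 with the GC correction). The matrix protease Lonp1 had 94.5 ± 22.0 CPM in control and 127 ± 13.7 CPM with malonyl-CoA (log2 fold change 0.42, SE 0.17, 0.22 with the GC correction). The iron-sulfur J protein Hscb had 51.1 ± 14.9 CPM in control and 35.1 ± 8.83 CPM with malonyl-CoA (-0.54, SE 0.23). Its adjusted p in edgeR was 0.515 without and 0.0481 with the replicate block, the only partner called with it. On the log2 scale the disaggregase Clpb and the mitochondrial HSP90 Trap1 differed by 0.30 (SE 0.15) and 0.15 (SE 0.13), which were 0.19 and -0.012 with the GC correction.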

How the data were processed

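A stranded total RNA kit was used on 350 ng of RNA for each of 8 libraries, 4 per group, per the labels' protocols. Each library has a deposited table of whole-number counts by Ensembl identifier, not normalized. Cutadapt 1.8, STAR 2.5.2b, HTSeq 0.6.1 and GRCm38 are named in the submitters' processing notes. Which annotation and strand mode HTSeq used is not given in the sources used here, so genes that overlap another gene are uncertain. The 5 counter classes that name no gene were kept out of library sizes (the no-feature class was 1.11% to 2.94% and the ambiguous class 0.715% to 0.891% of the counter's tally).

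Symbols and types came from GENCODE M21, which matched 48349 of 48709 identifiers. Counts were fitted with edgeR 4.0.16 in R 4.3.3: filterByExpr (minimum count 10, minimum total 15), TMM factors, robust quasi-likelihood fit, two-sided test and Benjamini-Hochberg adjustment over 12696 genes with a threshold of 0.05. CPM use TMM library sizes, and levels between genes were divided by the length of the principal transcript. Alternatives were RLE factors, library size only, no filter, at least 1 CPM in 4 libraries, the replicate block, DESeq2 1.42.0, limma-voom 3.58.1, a GC correction (loess span 0.5, genes with a mean log2 CPM above 2) with and without the block, and libraries left out. Every pair of libraries within a group differed by more than sampling noise (lowest chi-square per gene 7.63).

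Genes named with values were the core machines of each compartment, up to 3 members per direction and group with the smallest p, and up to 3 partners per list with the smallest p, plus Hsf1, Xbp1, Hyou1 and Trap1. Other genes (Dnajc2, Dnajb6, Dnaja2, the members of no group, and marker genes) were chosen after their values were seen. The members and lists were chosen with earlier results of these data known.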

Additional observations from a re-analysis of the deposited data

Results flagged for a closer look

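Of 84 groups of 4 libraries checked for the named members, 2 held a library far from the other 3 by Dixon's criterion, which chance gives in about 1 of 20 groups. Hsp90ab1 stood at 3961 CPM in malonyl-CoA 4, with the other malonyl-CoA libraries at 2716 to 2798 CPM. Cct4 stood at 403 CPM in the same library, with the others at 569 to 600.0 CPM.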

How the results depend on the processing

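None of all tested members passed an adjusted p of 0.05 in edgeR, DESeq2 or limma-voom in any of the 22 alternatives. Some came near it in edgeR with the replicate block, where adjusted p was 0.0517 for Hspe1, 0.0601 for Hspb11 and 0.0609 for Cct4. Over all genes the count of 0 became 1 without a low-count filter, 82 in DESeq2, 172 with the replicate number as a block and 48 with the GC correction and the block. The other alternatives gave 0. Same-numbered libraries deviated together in pairs 1, 3 and 4 but not 5 (correlations 0.43, 0.43, 0.75 and 0.052, own number best in 3 of 4). Pair 5 holds control 5, the library with the strongest trend on GC content, so its low correlation cannot decide whether the numbers are a pairing. Nothing in the design states one, and the block was kept as an alternative. With the block, Hscb was called (adjusted p 0.0481) and 14 members had an unadjusted p under 0.05 (25.5% of all genes did), against 2 without it, and 11 with the GC correction and the block. That count was 5 with library size only. For that fit, and for the GC correction with the block, the share of all genes is not given here. The median of every chaperone group moved by less than its spread between libraries in all alternatives, but that spread was wider than the median itself. Some medians changed sign. They ranged from -0.042 to 0.050 for ER members and -0.069 to 0.015 for cytosolic and nuclear J proteins. Mitochondrial members ranged from -0.096 to 0.061 and small heat shock proteins from -0.0006 to 0.27.

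Of 42 named members, 27 kept the sign of their log2 fold change in all 22 alternatives and 15 did not, none of them called. Values of opposite sign were Cct3 0.031 and Cct5 0.023 with library size only and Hspb8 -0.0008 in limma-voom. Without control 5 and malonyl-CoA 4 they were Cct5 0.021, Cct8 0.035, Hspd1 0.10, Dnajc10 0.022, Dnajc19 0.095 and Hspb6 -0.14. The GC correction gave Cct3 0.0098, Dnajc3 0.022, Dnaja3 -0.015 and Dnajc10 0.032, and with the replicate block Cct3 0.014, Dnajc3 0.023, Dnaja3 -0.014, Dnajc10 0.030 and Hspb8 -0.023. Leaving out single libraries or same-numbered pairs gave ranges of Hspa4 -0.014 to 0.22, Hsp90aa1 -0.12 to 0.26, Cct3 -0.10 to 0.071, Cct5 -0.081 to 0.047, Cct7 -0.098 to 0.14, Dnajc3 -0.12 to 0.041, Hspd1 -0.13 to 0.065, Hspa4l -0.20 to 0.11, Dnajc19 -0.35 to 0.009, Hspb8 -0.14 to 0.29, Hsp90b1 -0.041 to 0.54, Hspb6 -0.036 to 0.41, Dnaja3 -0.013 to 0.080 and Dnajc10 -0.11 to 0.011. The cause was not tested. Genes near 1 CPM rest on few reads, which limits Hspa1b, Hspa12b and Hspb8.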

Other observations

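The lid and the chamber of the mitochondrial chaperonin work together, and their transcripts were set against each other after their values had been seen. The CPM ratio of Hspe1 to Hspd1 was 0.371, 0.420, 0.257 and 0.357 in control (libraries 1, 3, 4 and 5), while 0.281, 0.225, 0.188 and 0.312 were the ratios with malonyl-CoA. The groups overlap through control 4, whose ratio lay below those of malonyl-CoA 1 and 5. No test was run on this ratio. It is not corrected for transcript length: per kb, the control means were 215 CPM for Hspe1 and 197 CPM for Hspd1. The genes overlap on opposite strands and the strand setting of the counting is not given, so the ratio is uncertain to that extent.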
